A study of Rattus norvegicus with 15 samples.

Results

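Transcript counts of 4 genes of intracellular calcium release were examined in rat brain after vagus nerve stimulation (VNS). The genes are Car8, which encodes carbonic anhydrase-related protein 8, and Itpr1, Itpr2 and Itpr3, which encode the inositol trisphosphate (IP3) receptors. They were chosen by symbol, as the RefSeq transcript records named Car8, Itpr1, Itpr2 and Itpr3, and account for 6 of the 18278 records counted. The set was built with the hippocampal VNS and control values in view, among which Car8 stood out, so the hippocampal values of all 4 genes are given as a description, with no test. The study stimulated rats through an implanted device for 30 min on each of 4 days, and its control rats carried a sham device. Hippocampal RNA came from rats that in addition did a 10 min novelty preference task on later days, with 4 libraries of VNS rats and 3 of controls, so both groups share surgery and task. All rats were killed right after the last session. The cortex groups were 4 VNS and 4 control libraries. The labels give no strain, sex, age or genotype, and do not say whether libraries came from separate animals, so p-values measure only the spread between these libraries.

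Inositol trisphosphate receptors are calcium channels of the endoplasmic reticulum. They open when phospholipase C, acting downstream of Gq-coupled receptors, releases IP3 from membrane phosphoinositides, and the calcium they release shapes neuronal excitability, plasticity and glial signalling. Itpr1 encodes the main receptor of central neurons and is most abundant in cerebellar Purkinje cells, Itpr2 is the principal receptor of astrocytes, and Itpr3 is best known from taste and secretory epithelia. Car8 belongs to the carbonic anhydrase family but is not catalytically active. Its protein binds the Itpr1 receptor and lowers the affinity of that receptor for IP3, and its loss causes ataxia in mice and people.

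Hippocampal libraries held 16728486 to 51463555 counts and cortex libraries 329130 to 435296. Ribosomal and 7SL RNA records took 17.2% to 40.4% of the counts in 6 hippocampal libraries and 74.3% in VNS library 3. Hippocampal control libraries 1 and 2 went against their tissue label. Neurod6, which encodes a transcription factor of excitatory forebrain neurons, had 0.65 and 1.05 CPM (read counts scaled by library size) in those 2 libraries and 58.9 to 207.4 CPM in the other 5. The thalamic marker list stood 3.61 and 0.68 above the mean of the 7 libraries on the log2 scale in control libraries 1 and 2, at -1.31 in control library 3 and between -1.44 and 0.76 after VNS. Markers of brainstem and midbrain stood at 0.85, 1.92 and -0.93 in control libraries 1 to 3 and at -1.39, 0.75, -0.08 and -1.12 in VNS libraries 1 to 4. The hippocampal differences of Car8, Itpr2 and Itpr3 are therefore given with and without control libraries 1 and 2. Those of other genes are given over all 7 libraries only.

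**Figure D1:**
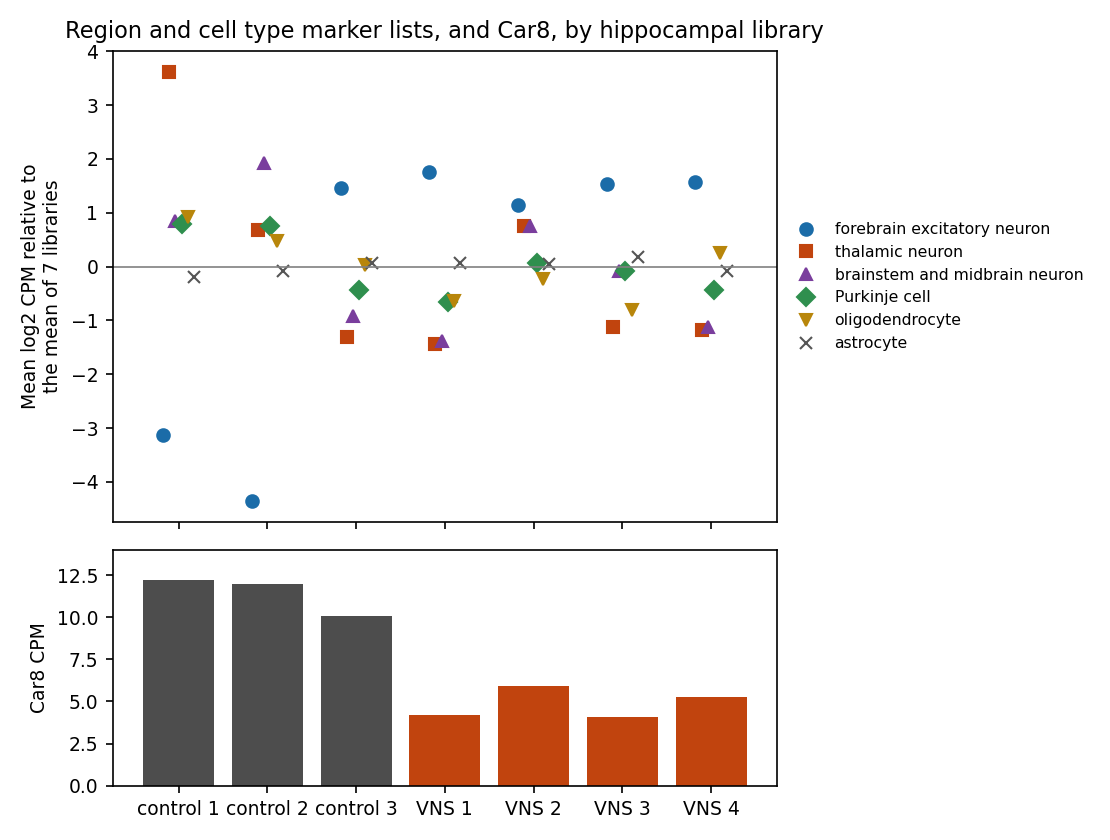
Mean log2 CPM of 6 marker lists relative to the mean of the 7 hippocampal libraries (top, log2 scale) and Car8 in CPM (bottom, bars from 0) for 3 control and 4 VNS libraries. Forebrain excitatory markers are low in control libraries 1 and 2 only. Car8 is at 10.0 CPM or more in all 3 controls and at 5.92 CPM or less in all 4 VNS libraries. The part of brain region in the Car8 values was not tested.

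Car8 had lower counts in the hippocampus of VNS rats. Control libraries 1, 2 and 3 were at 12.2, 12.0 and 10.0 CPM, with library sizes normalised by the trimmed mean of M values (TMM). VNS libraries 1, 2, 3 and 4 were at 4.21, 5.92, 4.07 and 5.25 CPM. All 4 VNS libraries lay below all 3 controls, a difference that was in view when Car8 was chosen. The 95% Poisson intervals of the nearest libraries were 9.17 to 11.0 CPM in control library 3 and 4.92 to 7.07 CPM in VNS library 2. Such intervals cover counting error only, and they may be too narrow because the counting command, per the file headers, did not join the mates of a read pair.

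The mean of Car8 was 11.4 ± 1.19 CPM (SD, n = 3) in the control group against 4.86 ± 0.88 CPM (SD, n = 4) in the VNS group. The log2 fold change was -1.22 (SE 0.19), so that the fitted VNS level was 43.0% of control. For comparison, 4.61% of the 12728 hippocampal records tested had every VNS library below every control library, and 402 records (3.16%) had a log2 fold change as low as that of Car8 or lower. The values rest on 600, 661 and 485 Car8 reads in control libraries 1 to 3 and on 284, 122, 20 and 212 reads in VNS libraries 1 to 4, so that VNS library 3 is the least precise (2.48 to 6.28 CPM). In bulk tissue, fewer cells that express a gene and less of its RNA per cell cannot be told apart.

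Without control libraries 1 and 2, the log2 fold change of Car8 was -1.04 (SE 0.32). That fit compares the 4 VNS libraries with control library 3 alone, which is assumed to vary as the VNS libraries do, and 13.3% of records had every VNS library below control library 3. Within the VNS group the highest Car8 value was that of library 2, which also had the highest levels of thalamic, brainstem and Purkinje cell markers in that group. The list of Purkinje cell markers, of which 5 of 6 were tested, had relative levels of 0.80, 0.75 and -0.44 in the controls in order and of -0.65, 0.07, -0.07 and -0.44 under VNS. Their summed level ran from 136.9 to 287.3 CPM in controls and from 129.6 to 186.1 CPM after VNS. Rgs8 made up much of this sum, at 61.8 to 236.7 CPM in controls and 51.2 to 88.8 CPM after VNS. Calb1 was instead lowest in control library 1, at 21.7 to 57.9 CPM in controls and 36.5 to 75.6 CPM after VNS. The defining marker Pcp2 was at 0.08 CPM or less in all 7 libraries. The part of brain region in the Car8 difference was not tested.

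**Figure D2:**
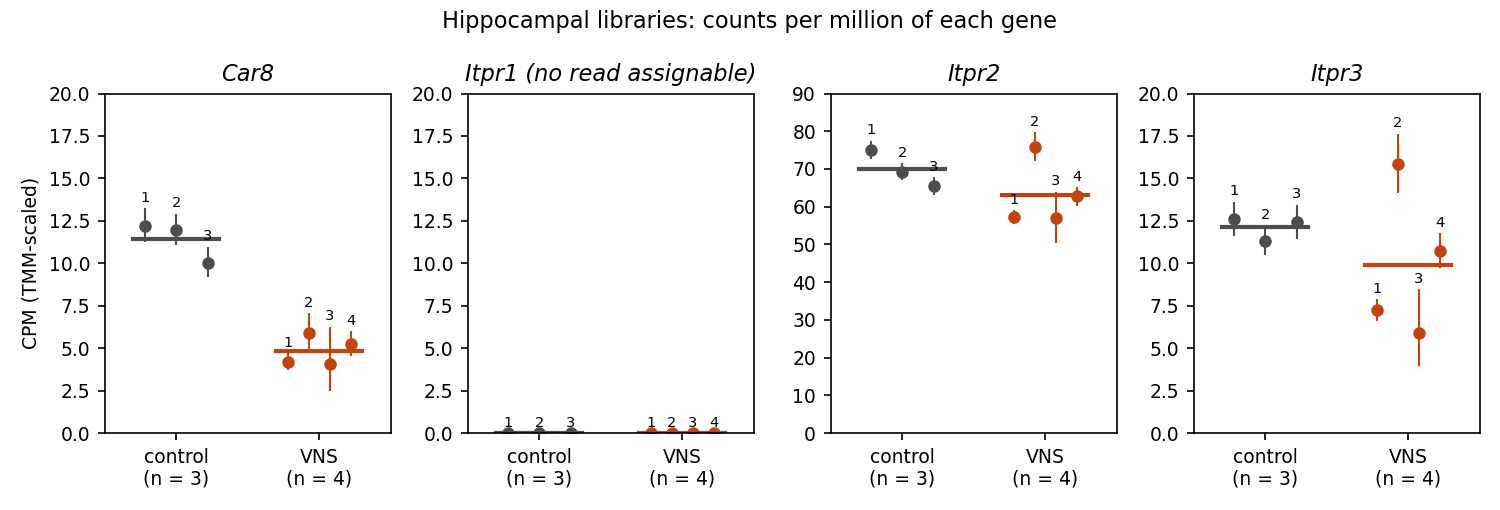
TMM-scaled CPM of Car8, Itpr1, Itpr2 and Itpr3 in 3 control and 4 VNS hippocampal libraries, with linear axes from 0 whose range differs for Itpr2. Points are libraries with their replicate number, vertical lines are 95% Poisson counting intervals and horizontal lines are group means. The groups separate for Car8, 10.0 to 12.2 against 4.07 to 5.92 CPM, and overlap for Itpr2 and Itpr3, while Itpr1 is at 0 because no read could be assigned to it.

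The Car8 record, NM_001009662, lies on the minus strand of chromosome 5 from 26010374 to 26106856 in the rn5 build, with 9 exons of 1403 bases in all. No exon base of it is shared with another record, so neither an overlapping gene nor a second Car8 record could take its reads.

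Itpr1, the receptor that the Car8 protein binds, could not be measured from these counts. Its 3 records were at 0 reads in all 15 libraries. The records NM_001270596, NM_001270597 and NM_001007235 span the same stretch of the plus strand of chromosome 4, from 204714826 to 205047901 in rn5. They have 61, 59 and 62 exons, and each of their 9712, 9640 and 9757 exon bases is also held by another Itpr1 record. They differ in only 4 short exons, each held by 2 of the 3 records.

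The first of these alternative exons, of 45 bases (chromosome 4, 204865632 to 204865676), is absent from NM_001270596. The other 3, of 33, 36 and 48 bases, lie between 204923059 and 204931803 and are absent from NM_001270597. Reads were counted per transcript record, and the counting command in the file headers holds no option for assigning a read to more than 1 record. In the same annotation 647 records of genes with several records have no exon base of their own, and all 647 were at 0 in the hippocampal table. Itpr1 is 1 of 51 genes for which this holds for every record. A count of 0 for Itpr1 therefore gives no upper limit on its expression.

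**Figure D3:**
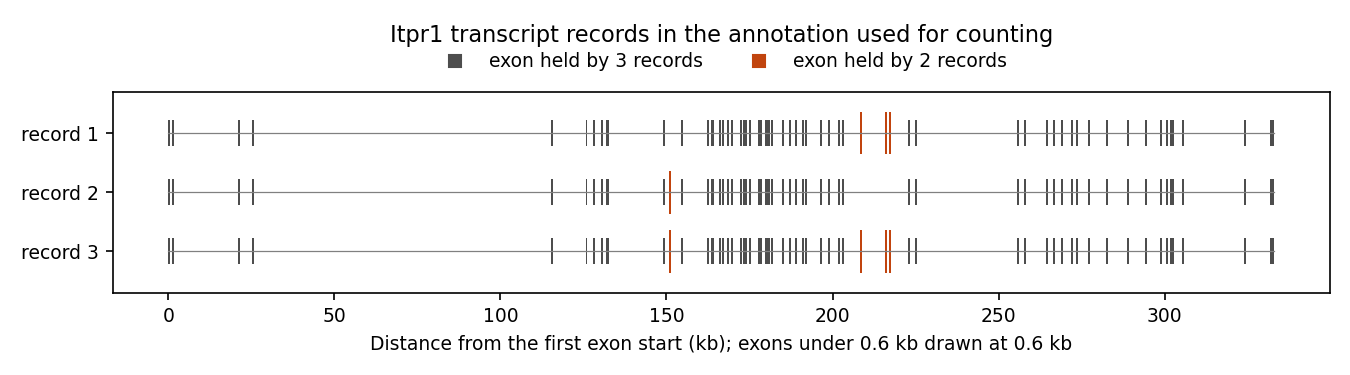
Exons of the 3 Itpr1 records (NM_001270596, NM_001270597 and NM_001007235 from top to bottom) by distance in kb from the first exon start. Dark boxes are exons held by all 3 records and taller orange boxes the 4 exons held by 2 of 3, so that no exon belongs to 1 record alone.

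Itpr2, the receptor gene typical of astrocytes, was at nearly the same level in both hippocampal groups. Control libraries 1 to 3 were at 75.0, 69.2 and 65.4 CPM, and VNS libraries 1 to 4 at 57.2, 75.9, 56.9 and 62.7 CPM. The groups overlapped, since VNS library 2 was the highest of the 7. The means were 69.9 ± 4.83 CPM (SD, n = 3) for control and 63.2 ± 8.88 CPM (SD, n = 4) for VNS, with a log2 fold change of -0.14 (SE 0.14), or -0.06 (SE 0.22) without control libraries 1 and 2. The mean of the astrocyte marker list, over 5 tested records, stood at -0.19 to 0.18 relative to the mean of the 7 libraries. Its members did not move together. Aldoc was at 696.2 to 1215.5 CPM in controls and 446.7 to 734.9 CPM after VNS, and Gfap at 478.2 to 1018.4 and 754.6 to 1995.9 CPM. The Itpr2 record, NM_031046, lies on the minus strand of chromosome 4 from 244585711 to 244960429 in rn5, with 57 exons of 10513 bases, and shares no exon base with another record.

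Itpr3 varied more among the VNS libraries than among the controls. Control libraries 1 to 3 were at 12.6, 11.3 and 12.4 CPM. VNS libraries 1 to 4 were at 7.23, 15.8, 5.90 and 10.7 CPM, so that library 2 lay above every control and the other 3 below. The value of VNS library 3 rests on 29 reads (95% Poisson interval 3.95 to 8.47 CPM), against 600 to 626 reads in each control library. The means were 12.1 ± 0.68 CPM (SD, n = 3) for control and 9.92 ± 4.43 CPM (SD, n = 4) for VNS. The log2 fold change was -0.27 (SE 0.31), and -0.31 (SE 0.45) without control libraries 1 and 2. It was -0.59 without VNS library 2, -0.13 without VNS library 1 and -0.11 without VNS library 3. The record, NM_013138, lies on the plus strand of chromosome 20 from 7711508 to 7775357 in rn5, with 59 exons of 8737 bases.

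Ratios between these genes within a library do not depend on how libraries are scaled. Per exon length, Car8 had 1.22, 1.30 and 1.15 times the counts of Itpr2 in control libraries 1, 2 and 3. After VNS the ratio was 0.55, 0.58, 0.54 and 0.63 in libraries 1 to 4. Car8 thus stood above Itpr2 in 3 of 3 controls and below it in 4 of 4 VNS libraries, with means of 1.22 ± 0.07 (SD, n = 3) and 0.57 ± 0.04 (SD, n = 4). VNS library 3, with its high ribosomal RNA share, was at 0.54, beside 0.55 to 0.63 in the other VNS libraries. Control libraries 1 and 2 are those that went against their tissue label. A gap between groups in this ratio is expected from the choice of Car8 and adds no evidence.

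The ratio of Car8 to Itpr3 ran from 5.03 to 6.58 in controls and from 2.33 to 4.29 after VNS, again without overlap. The ratio of Itpr2 to Itpr3 overlapped between groups, at 4.38 to 5.07 in controls and 3.98 to 8.02 after VNS. The lowest and the highest of these values were those of VNS libraries 2 and 3. Because Car8 was chosen for its difference between groups, these ratios carry no test either.

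**Figure D4:**
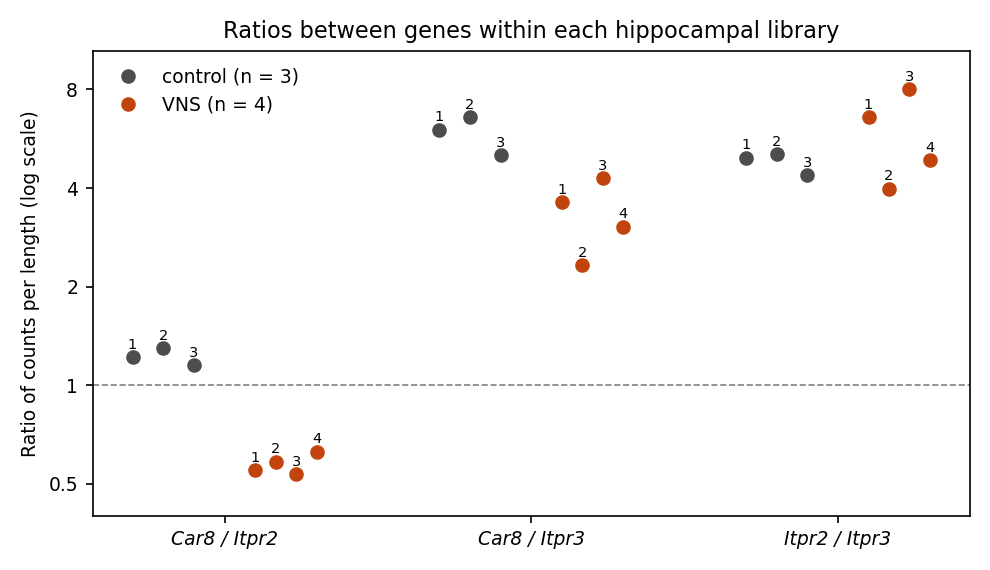
Ratio of counts per exon length between pairs of genes in each hippocampal library (log scale, dashed line at 1), with replicate numbers, for 3 control and 4 VNS libraries. The Car8 to Itpr2 ratio is at 1.15 to 1.30 in controls and 0.54 to 0.63 after VNS.

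The order of the measurable genes in CPM per kilobase of exon (RPKM) was not the same in the 2 hippocampal groups. In controls Car8 was the highest at 8.13 ± 0.85 RPKM, followed by Itpr2 at 6.65 ± 0.46 and Itpr3 at 1.39 ± 0.08 (SD, n = 3). Under VNS Itpr2 was the highest at 6.01 ± 0.84 RPKM, followed by Car8 at 3.47 ± 0.63 and Itpr3 at 1.14 ± 0.51 (SD, n = 4). Itpr3 was the lowest of the 3 genes in 7 of 7 libraries. The place of Itpr1 in this order is not known.

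In the cortex, whose libraries the choice of genes did not use, only Itpr3 had enough reads to be tested. Its control libraries 1 to 4 were at 353.7, 444.1, 531.0 and 585.9 CPM and its VNS libraries 1 to 4 at 474.9, 600.7, 595.1 and 563.9 CPM, so the groups overlapped. The means were 478.7 ± 101.7 and 558.6 ± 58.2 CPM (SD, n = 4 each). The log2 fold change was 0.22 (SE 0.20), and the difference did not pass (adjusted p = 0.9998, edgeR quasi-likelihood test, Benjamini-Hochberg adjustment over 3884 records, of which 0.0257% were called).

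A cortex count may not measure the gene whose name its record carries. Cortex counts were made with strand option 1, per the file header, whereas hippocampal counts were made without a strand option. Itpr3 ranked above 98.1% of all records in the cortex and above 60.0% in the hippocampus. The nearest record on the other strand, Uqcc2, runs towards Itpr3, and its last base lies 498 bases past the end of Itpr3 in rn5. Uqcc2 itself was at 1.07 to 3.35 CPM in the hippocampus. Pcp2, a Purkinje cell gene at 0.08 CPM or less in the hippocampus, was at 1074 to 1583 CPM in the cortex, while the forebrain gene Neurod6 was at 0 to 19.7 CPM. What part the strand setting has in the cortex values of Car8, Itpr2 and Itpr3 was not tested.

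Car8 and Itpr2 were near the limit of detection in the cortex. Car8 had 0, 3, 0 and 0 reads in control libraries 1 to 4 and 2, 6, 2 and 0 in VNS libraries 1 to 4. A count of 0 allows up to 3 reads, which is 8.25 to 9.83 CPM in the 4 libraries at 0. VNS library 2 had the highest value, 17.8 CPM, from its 6 reads. Itpr2 had 0, 3, 3 and 10 reads in controls and 2, 8, 3 and 3 after VNS, or 16 reads in each group. Neither gene passed the filter on low counts.

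The other genes of the carbonic anhydrase family and of IP3 signalling were examined as 8 lists that hold 106 genes besides the 4 above. Of these genes 91 were tested in the hippocampus, as 95 records. None of the 95 records passed with edgeR's quasi-likelihood test, against 0.0% of all 12728 records. Of the 95, 17 had an unadjusted p under 0.05, against 1537 of the 12728, a smaller share. DESeq2 and limma-voom called 0 of the 95 as well (17 and 0 of all records). Every VNS library lay above every control for 8 records (8.42%, against 4.67% of all records) and below for 1 (1.05%, against 4.61%). That 1 was Bcl2, the antiapoptotic protein that also binds IP3 receptors. Its controls had 4.89, 5.58 and 5.16 CPM and its VNS libraries 4.12, 3.35, 2.85 and 3.54 CPM (log2 fold change -0.57), and it was chosen for mention after its values were seen. Without control library 3, only the 2 controls that went against their label were used. In that fit 26 of 97 list records passed (17 higher and 9 lower), a larger share than the 1377 of all 12931. Whether the lists differ from all records was not tested.

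Among the 9 tested carbonic anhydrase genes, none passed and none separated the groups, with a median log2 fold change of 0.19 against -0.01 over all records. The 2 lowest values were those of Car14, a membrane-bound isozyme of neurons and glia (-1.23, SE 0.41), and Car3 (-1.06, SE 0.78, at 1.63 CPM or less in every library). Car14 was at 20.3, 16.3 and 6.03 CPM in controls 1 to 3 and at 3.66 to 8.20 CPM after VNS, so control library 3 lay within the VNS range. Car2, the cytosolic enzyme abundant in oligodendrocytes, had 256.1, 239.9 and 138.9 CPM in control libraries 1 to 3 against 99.4 to 169.6 CPM under VNS (-0.82, SE 0.27). Oligodendrocyte markers as a list stood at 0.93, 0.48 and 0.03 in the same controls and at -0.81 to 0.26 after VNS, and their part in the Car2 values was not tested. Car11, like Car8 a family member without catalytic activity, had a positive log2 fold change (0.38, SE 0.21), at 38.6, 39.0 and 54.1 CPM in controls and 43.4 to 74.4 CPM after VNS. The remaining values ran from -0.46 for Car5b to 1.32 for Car12.

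Of 24 tested genes that produce IP3, from Gq-coupled receptors to phospholipases C, none passed, with 10 log2 fold changes below 0 and 14 above and a median of 0.21. Over all records 50.8% lay below 0. Plcb4, a phospholipase C abundant in thalamus and Purkinje cells, was at 398.0, 167.8 and 26.2 CPM in controls 1 to 3 and at 14.1 to 43.2 CPM after VNS (-2.91, SE 0.76). Adra1b, an adrenergic receptor gene, was at 85.2, 6.94 and 3.02 CPM in controls and 1.32 to 6.99 CPM after VNS (-3.37, SE 1.13). The high values of Plcb4 were those of control libraries 1 and 2, which went against their label. For Adra1b only control library 1 was high, and control library 2 lay within the VNS range. For both genes control library 3 lay within the VNS range. The muscarinic receptor gene Chrm1 showed the opposite, at 3.52, 0.63 and 91.7 CPM in controls and 87.2 to 110.1 CPM after VNS (1.58, SE 1.27). Gnaq, the G protein subunit that activates phospholipase C, was at 53.8, 60.3 and 81.8 CPM in controls and 76.8 to 114.9 CPM after VNS (0.50, SE 0.20).

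The 8 enzymes that remove IP3 or recycle inositol had 5 log2 fold changes below 0 and 3 above, with a median of -0.10, and none passed. Inpp5a, the phosphatase that ends the IP3 signal, was at 85.7, 50.1 and 30.3 CPM in controls and 25.4 to 31.9 CPM after VNS (-0.997, SE 0.31). Impa2, an inositol monophosphatase, was at 21.9, 3.82 and 3.04 CPM in controls and at 1.19 to 3.54 CPM after VNS (-2.24, SE 0.74). Impa1 did not follow, at 48.5 to 56.2 CPM in controls and 41.3 to 58.5 CPM after VNS (-0.08, SE 0.15). Itpka, the IP3 kinase of dendritic spines, was at 6.19, 1.34 and 128.0 CPM in controls and 76.0 to 162.3 CPM after VNS (1.46, SE 1.22). For Inpp5a, Impa2 and Itpka control library 3 lay within the VNS range. Control libraries 1 and 2, which went against their label, lay outside it for these genes.

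Among proteins that bind or regulate IP3 receptors, 23 records were tested, none passed, and 12 log2 fold changes lay below 0 and 11 above (median -0.02). Chgb, which encodes chromogranin B, was at 93.5, 121.1 and 130.3 CPM in controls and reached 264.3, 167.2, 479.5 and 188.6 CPM under VNS in order, with all VNS libraries above all controls (1.26, SE 0.37). Homer3, a scaffold that links metabotropic glutamate receptors to IP3 receptors, was at 11.1, 9.95 and 24.8 CPM in controls 1 to 3. After VNS Homer3 was at 23.5 to 59.5 CPM (1.23, SE 0.42), so control library 3 lay within the VNS range. The abundant partner Ahcyl1, an inhibitor that competes with IP3 for its receptor, was at 427.4, 467.6 and 317.1 CPM in controls 1 to 3. After VNS Ahcyl1 was at 274.5 to 343.3 CPM (-0.39, SE 0.18), again with control library 3 within the VNS range. The calcium sensor gene Ncs1 had a log2 fold change of 0.07 (SE 0.16). Erlin1, part of the complex through which active IP3 receptors are degraded, was at 9.67, 14.1 and 19.3 CPM in controls and 19.99 to 25.8 CPM after VNS (0.65, SE 0.24), and its partner Erlin2 was at 30.9 to 43.3 and 27.8 to 34.0 CPM (-0.26, SE 0.15).

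The 17 tested records of the endoplasmic reticulum calcium store and of store-operated entry had a median log2 fold change of 0.08, and none passed. Orai2, a store-operated channel subunit, was at 57.1, 73.5 and 101.1 CPM in controls and 101.6 to 136.4 CPM after VNS (0.65, SE 0.21), with the lowest VNS library next to control library 3. Stim2, the calcium sensor that opens such channels, was at 39.4, 63.9 and 81.6 CPM in controls and 77.9 to 134.2 CPM after VNS (0.80, SE 0.28). The calcium-binding chaperone genes Calr and Canx, the most abundant of the list per length, had log2 fold changes of 0.31 (SE 0.16) and -0.04 (SE 0.15). The 11 records of diacylglycerol and calcium effectors had 2 log2 fold changes below 0 and 9 above, with a median of 0.83, and none passed. All of those named next were lowest in control libraries 1 and 2. In this list Dgkz, a diacylglycerol kinase, was at 183.3, 100.4 and 637.4 CPM in controls and 504.1 to 991.8 CPM after VNS (1.22, SE 0.59), and the channel gene Trpc5 at 5.03, 26.7 and 44.4 against 44.5 to 75.4 CPM (1.08, SE 0.60). The 1 tested Ryr2 record of 2, for the ryanodine receptor that releases calcium from the same store, was at 6.03, 18.1 and 36.6 CPM in controls and 26.0 to 46.2 CPM after VNS (0.83, SE 0.51).

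**Figure D5:**
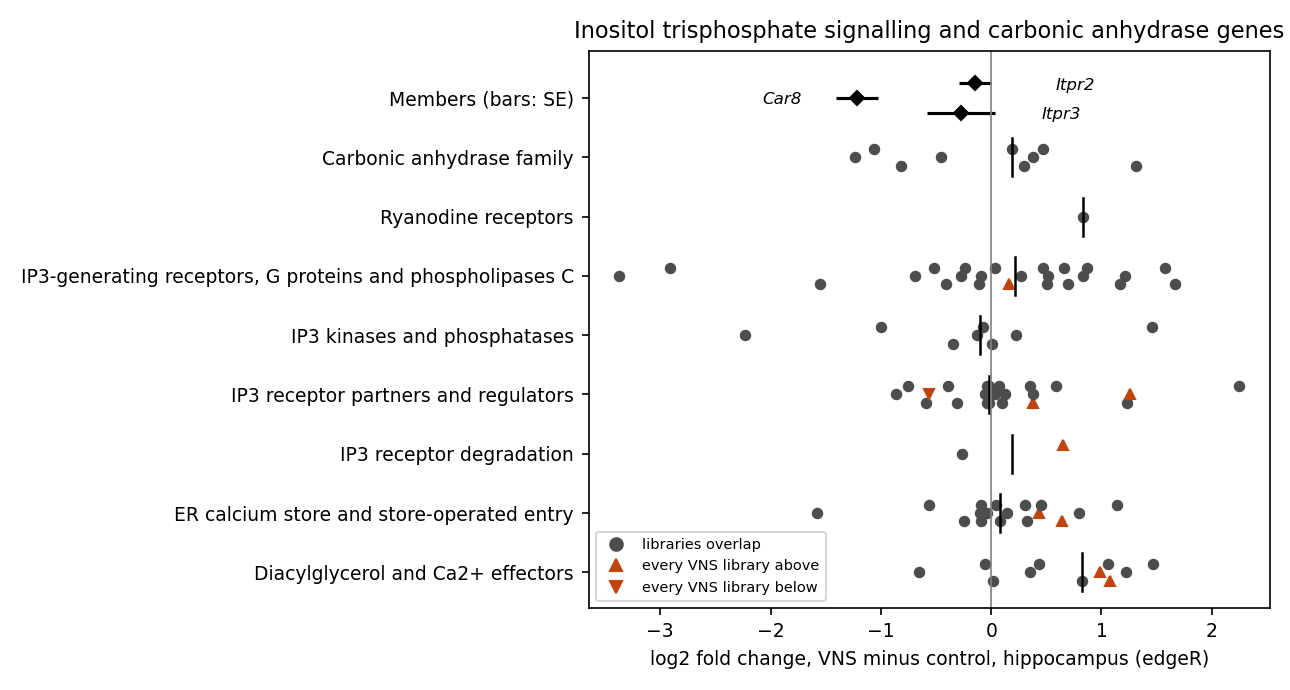
Log2 fold change (VNS minus control) of the 3 measurable genes, with SE bars, and of 95 tested records of 8 lists, with the list median as a short line. Triangles mark the 8 records with every VNS library above every control and the 1 below. Some list records lie lower than Car8 (-1.22), among them Adra1b (-3.37), Plcb4 (-2.91) and Impa2 (-2.24). These named records were each highest in control library 1, which went against its tissue label.

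The 5 records whose levels followed those of Car8 most closely over the 7 hippocampal libraries, by Pearson r of log2 CPM, included Nars2 (0.97), a mitochondrial asparaginyl-tRNA synthetase gene, Nr1d2 (0.97), a clock repressor gene, Fut9 (0.97), a fucosyltransferase gene, and Bad (0.97), a proapoptotic gene. The 5 are the highest of 11979 ranked records and are given as a description, since the libraries differ in region and depth. Fut9 was at 60.2, 59.0 and 59.6 CPM in controls 1 to 3 against 34.1, 47.9, 32.7 and 39.1 CPM under VNS. Nr1d2 was at 141.4, 147.0 and 116.9 CPM and at 86.1, 100.8, 73.6 and 91.8 CPM, so that for both genes, as for Car8, VNS library 2 was the highest of its group. These 4 records had smaller log2 fold changes than Car8 (-0.22 to -0.63). Without control libraries 1 and 2, 1 of the 5 was still among the 5 closest, and with Spearman ranks 0 were. Closest to Itpr2 were Mutyh, Aurkc, Rcc1l, Slc2a1 and Wfdc1 (r of 0.97 to 0.98), and closest to Itpr3 were Poglut2, Cyp4v3, Tlr9, Dhrsx and Ddi1 (0.97 to 0.99). Of the IP3 receptor genes, Itpr2 had an r of 0.70 with Car8 and Itpr3 one of 0.64, while Itpr2 and Itpr3 had one of 0.91 with each other.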

How the data were processed

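Read counts came from 8 cortex and 7 hippocampal libraries. Per the labels, the cortex libraries were polyA-selected and the hippocampal ones ribosome-depleted total RNA, made with a stranded TruSeq kit and read at 100 bp paired-end. Tools listed in the submitters' processing notes include Bowtie2, Trimmomatic, featureCounts, edgeR, SAMtools 0.1.19 and FastQC 0.10.1. The authors deposited raw counts per RefSeq record in rn5. Per the file headers they ran featureCounts 1.4.6-p2 with strand option 1 for cortex and none for hippocampus. How the aligner was set is not given in the sources used here. Of 18278 records, 17339 were given symbols through RefSeq's GRCr8 table, from which no coordinate was taken. 1 cortex column differs from its library's description by a final letter.

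Counts were filtered (filterByExpr, minimum count 10, minimum total 15), scaled by TMM and tested per tissue with edgeR 4.0.16 (glmQLFit and glmQLFTest, two-sided, Benjamini-Hochberg, threshold 0.05) in R 4.3.3, with DESeq2 1.42.0 and limma 3.58.1 as alternatives. The scripts were tested on simulated data. A planned test of the order of the genes is not reported, since it uses the hippocampal values known when the genes were chosen. RPKM used the exon length in the files. The genes and lists were chosen with earlier results of these data known. Named list genes were the 2 with the highest mean RPKM and the 2 with the smallest p in each list. The rule also names the 5 records most like Car8. Of the genes these rules pick, 2 are not reported here. Likeness to Itpr1 was planned but could not be computed, so likeness to Itpr2 and Itpr3 was added after seeing the data, as were the list counts under each alternative.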

Additional observations from a re-analysis of the deposited data

Results flagged for a closer look

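Each member's values were checked for a library far from the others in 9 combinations of a gene and a group of 4 libraries, where chance flags about 1 in 20 groups. Car8 in cortex control library 2 stood apart, at 7.09 CPM, which is 3 reads against 0 in the other 3 control libraries. With those at 0, any count above 0 in the remaining library is flagged, so the stated rate does not apply here. Itpr2 in cortex VNS library 2 stood apart at 23.8 CPM, which is 8 reads against 2 or 3 in the other VNS libraries. Both rest on 8 reads or fewer.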

How the results depend on the processing

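The hippocampal log2 fold changes of Car8, Itpr2 and Itpr3 kept their sign under all 15 alternatives. With raw totals in place of TMM scaling they were -1.79, -0.72 and -0.79, where the median of all records was -0.59, so that relative to that median they were -1.20, -0.13 and -0.20. Under the other 14 alternatives Car8 was between -1.33 and -1.04. Leaving out 1 library at a time gave -1.33 to -1.14 for Car8, -0.25 to -0.09 for Itpr2 and -0.59 to -0.11 for Itpr3. The number of hippocampal records called, 0, became 194 with raw totals, 17 with DESeq2 and 0 to 1377 without 1 library, the last without control library 3. For the pathway lists, 4 records were called with raw totals and 0 to 26 without 1 library, again the last without control library 3. The cortex count of 1 became 5 with no filter, 0 with limma-voom and 0 to 4 without 1 library (4 without control 1, and 0 on leaving out any of controls 2 to 4 or VNS 1 or 4), and Itpr3 did not pass in the cortex under any of 15 alternatives. No paired analysis was possible because the labels give no replicate numbers shared between groups. Depth limits Car8 and Itpr3 in hippocampal VNS library 3, and all cortex values of Car8 and Itpr2.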
